A study of Homo sapiens with 4 samples.

Results

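The genes described here code for the D-type cyclins, their partner kinases CDK4 and CDK6, and the 3 proteins of the retinoblastoma (RB) family. They were taken by symbol (CCND1, CCND2, CCND3, CDK4, CDK6, RB1, RBL1 and RBL2). Of these 8 genes, 7 matched a row among the 20515 genes of the count table, and all 7 passed the filter on low counts; CCND2 was not analysed here. Poly(A) RNA was sequenced from 2 baicalein samples and 2 untreated control samples of T47D, a cultured line derived from a human luminal breast carcinoma that carries estrogen and progesterone receptors. Baicalein is a plant flavonoid known as an inhibitor of lipoxygenases. The labels used here state no dose, exposure time or vehicle, and all samples are of a single cell line with no engineered allele named in the labels.

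D-type cyclins carry growth signals into the cell cycle. They bind CDK4 or CDK6, and the active complexes phosphorylate the RB family, the so-called pocket proteins. Pocket proteins that are not phosphorylated hold E2F transcription factors and keep genes of DNA synthesis silent. RB binds mainly the activating E2Fs, while p107 (the product of RBL1) and p130 (the product of RBL2) bind the repressive ones and join the MuvB core to form the DREAM complex. In luminal breast cells CCND1 is a known target of estrogen signalling, and CDK4/6 inhibitors are in use against tumours of this kind.

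Total counts were 56732569 and 38597207 in baicalein 1 and 2, and 45341857 and 45618604 in control 1 and 2. On the log2 scale, CPM (counts scaled to a common library size) correlated across genes at 0.9946 between the baicalein libraries and at 0.9945 between the controls, against 0.9318 to 0.9357 between groups. Levels are CPM with TMM factors, fold changes are baicalein over control, and errors are SD over n = 2 libraries per group. Whether libraries of a group were grown as separate cultures is not stated, and p-values then measure a spread that may be technical. The 8 luminal epithelial markers examined were all detected, with a summed level of 6238 and 6333 CPM in baicalein and 12334 and 13612 CPM in control libraries; 7 were lower in baicalein and EPCAM did not pass. Of 6 fibroblast markers only COL1A1 and LUM were tested, with summed levels of 151.0 and 140.9 CPM in baicalein and 90.3 and 100.6 CPM in control libraries, nearly all from COL1A1. Basal markers (2 of 4 tested) summed to 1.13 and 1.48 CPM in baicalein and 4.76 and 5.70 CPM in control libraries, but the 2 genes went opposite ways, TP63 lower (0.293 and 0.403 CPM in baicalein, 4.61 and 5.47 CPM in control libraries) and KRT17 higher (0.841 and 1.07 CPM in baicalein, 0.148 and 0.234 CPM in control libraries). CD68 was the single tested gene of 6 immune and endothelial markers, at 0.274 and 0.349 CPM in baicalein and 0.296 and 0.362 CPM in control libraries. The part of these markers in the results was not tested. In bulk RNA, fewer cells of a kind and less RNA per cell cannot be told apart.

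Promoter sequence was available in RefSeq's table for 6 of the 7 tested genes, and 3 windows are shown because they hold, or in the case of RBL2 lack, motifs of factors that act in this pathway. Each runs 5' to 3' over the 250 bases before an annotated transcript start on GRCh38.p14. Capitals mark E2F sites in RBL1 and E-boxes in CDK4. The RBL1 window lies on the minus strand at chr20:37095998-37096247, the RBL2 window on the plus strand at chr16:53434221-53434470 and the CDK4 window on the minus strand at chr12:57752311-57752560. The RBL2 and CDK4 windows lie inside the bounds of their genes in GENCODE release 29, downstream of the outermost annotated start.
RBL1: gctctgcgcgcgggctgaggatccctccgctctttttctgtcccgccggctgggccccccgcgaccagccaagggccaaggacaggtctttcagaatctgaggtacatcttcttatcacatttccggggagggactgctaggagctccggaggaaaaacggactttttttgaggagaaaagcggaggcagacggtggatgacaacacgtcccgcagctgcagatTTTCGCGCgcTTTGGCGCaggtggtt
RBL2: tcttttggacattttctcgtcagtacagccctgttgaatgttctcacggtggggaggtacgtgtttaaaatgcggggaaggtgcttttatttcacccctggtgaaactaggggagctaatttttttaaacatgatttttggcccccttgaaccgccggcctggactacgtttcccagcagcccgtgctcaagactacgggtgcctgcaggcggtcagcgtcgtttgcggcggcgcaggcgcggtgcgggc
CDK4: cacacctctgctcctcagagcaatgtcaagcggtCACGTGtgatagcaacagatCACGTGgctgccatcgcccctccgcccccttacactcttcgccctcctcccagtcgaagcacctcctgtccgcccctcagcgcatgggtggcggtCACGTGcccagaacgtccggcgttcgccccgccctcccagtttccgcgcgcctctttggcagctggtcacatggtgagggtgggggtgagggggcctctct
The motifs searched on both strands were the E2F sites TTTCGCGC, TTTGGCGC, TTTCCCGC and TTTGCCGC, the CHR element TTTGAA, the cAMP response element TGACGTCA, the E-box CACGTG, the GC box GGGCGG and the xenobiotic response element TNGCGTG. RBL1 held a TTTCGCGC at -26 to -19 and a TTTGGCGC at -16 to -9 from its transcript start, in tandem and without overlap. Any E2F site of the 4 occurred in 2.79% of 35116 promoter windows of the same length, and at least 2 of them in 0.122%. CDK4 held 3 E-boxes, the motif bound by MYC and its partner MAX, which was true of 0.0797% of windows, beside 3 GC boxes. The GC box is common: it occurred in 42.6% of windows, and also in windows of CCND3 and CDK6 that are not shown. The RBL2 window shown held none of the 9 motifs. A match is a description of these letters and not evidence of binding.

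**Figure D1:**
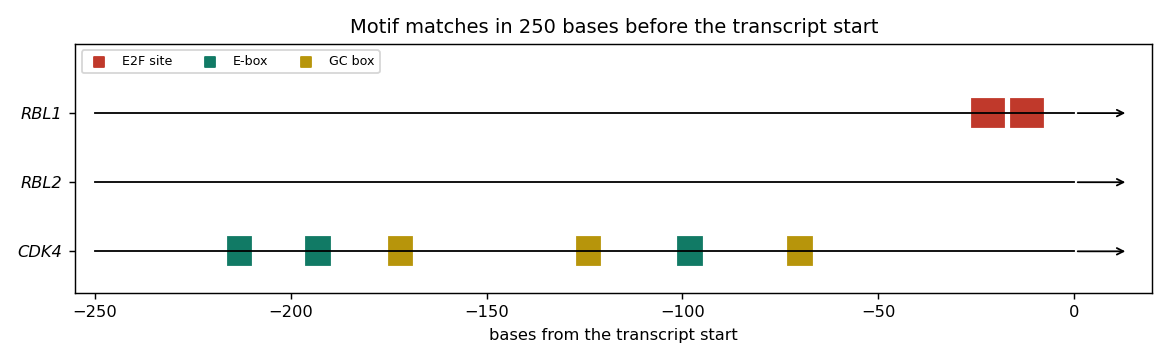
Motif matches in the 250 bases before the transcript start (x axis, bases) of RBL1, RBL2 and CDK4; red boxes are E2F sites, green boxes E-boxes, yellow boxes GC boxes, and arrows mark the start. RBL1 has 2 adjacent E2F sites within 26 bases of its start, RBL2 has no match, and CDK4 has 3 E-boxes and 3 GC boxes.

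After baicalein both measured D-type cyclin genes fell, CCND1 by 3.03-fold and CCND3 by 4.30-fold. The kinase genes did not follow them: CDK6 was 1.79 times its control level and CDK4 1.09 times. All 3 RB family genes were lower, with RBL1 at 0.323, RB1 at 0.771 and RBL2 at 0.735 times the control level. By the quasi-likelihood test of edgeR, with p-values adjusted over 18369 genes (threshold 0.05), 5 of the 7 genes were lower and 2 higher. In the same test 75% of all tested genes passed in either direction, 37.6% lower and 37.4% higher, so that a count of 7 passing genes is near the background, and the sizes below say more than the calls. The median log2 fold change was -0.45 over the 7 genes and 0.00 over all tested genes.

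CCND1, on chromosome 11 (ENSG00000110092, positions 69641087 to 69654474 of GRCh38), codes for cyclin D1. Its level was 120.1 and 120.1 CPM in baicalein libraries, against 367.7 and 359.1 CPM in control libraries. The log2 fold change was -1.60 (SE 0.04, edgeR adjusted p = 5.96e-19). The libraries of each group lay close together and the groups were far apart. The gene LTO1 shares 497 exon bases with CCND1 on the opposite strand. LTO1, which codes for a protein of ribosome assembly, was higher in baicalein (55.5 and 57.4 CPM, against 28.7 and 27.6 CPM in control libraries), so the 2 overlapping genes moved in opposite directions. To which of the 2 genes reads in the shared bases were counted was not tested.

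CCND3, which codes for cyclin D3 (ENSG00000112576, chromosome 6, positions 41934933 to 42050357), had the largest fold change of the 7 genes. It measured 13.8 and 15.3 CPM in baicalein libraries and 61.4 and 63.1 CPM in control libraries. The log2 fold change was -2.10 (SE 0.06, edgeR adjusted p = 1.19e-18). Of all tested genes, 15.2% passed and were lower by at least 2-fold, a group that holds CCND1, CCND3 and RBL1 among the 7. CCND3 has several annotated transcript starts, which the counts per gene do not separate.

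CDK4 (ENSG00000135446, chromosome 12, positions 57747727 to 57756013), the more abundant of the 2 kinase genes, had 116.7 and 114.5 CPM in baicalein libraries, against 102.7 and 109.4 CPM in control libraries. The log2 fold change of 0.12 (SE 0.04) passed edgeR's test at adjusted p = 0.0136, but not with upper quartile factors (0.09, adjusted p = 0.0598), nor with library totals alone (0.02, adjusted p = 0.666). It was also lost without baicalein 1 (adjusted p = 0.167) and without baicalein 2 (0.0744). With GC content and exon length corrected the CDK4 value was larger, at 0.26 (edgeR adjusted p = 5.47e-08). Leaving out control 1 gave 0.08 and leaving out control 2 gave 0.18. TSPAN31, a tetraspanin gene on the opposite strand, shares 1369 exon bases with CDK4 and had a log2 fold change of 0.18. No source used here states the strand setting of the counting, so reads in the shared exons may have gone to either gene.

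CDK6 (ENSG00000105810, chromosome 7, positions 92604921 to 92836594), the second kinase partner of the D-type cyclins, was the least abundant of the 7 genes. Its level was 9.31 and 9.29 CPM in baicalein libraries and 5.19 and 5.19 CPM in control libraries, from 509 and 346 counts in baicalein and 245 and 244 counts in control libraries. The log2 fold change was 0.84 (SE 0.10, edgeR adjusted p = 4.49e-08), and the groups did not overlap. The near equality of the libraries within a group is no measure of precision at counts of this size.

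RBL1 (ENSG00000080839, chromosome 20, positions 36996349 to 37095995), which codes for p107 and is itself a known E2F target gene, had 14.6 and 15.2 CPM in baicalein libraries, against 48.1 and 44.1 CPM in control libraries. The log2 fold change was -1.63 (SE 0.06, edgeR adjusted p = 2.49e-16). RB1 (ENSG00000139687, chromosome 13, positions 48303726 to 48599436), which codes for the retinoblastoma protein, had 54.0 and 51.4 CPM in baicalein libraries and 71.8 and 65.1 CPM in control libraries. Its log2 fold change was -0.37 (SE 0.05, edgeR adjusted p = 1.39e-06). RBL2 (ENSG00000103479, chromosome 16, positions 53433977 to 53491649), which codes for p130, the pocket protein typical of resting cells, had 70.6 and 66.2 CPM in baicalein libraries, against 97.0 and 89.6 CPM in control libraries. Its log2 fold change was -0.45 (SE 0.05, edgeR adjusted p = 3.26e-08). The groups did not overlap for any of the 3 genes, nor for the other 4; this held for 86.9% of all tested genes. RB1 and RBL2 changed by less than 1.5-fold and did not pass a test against that size. RBL2 shares 610 exon bases with AKTIP on the opposite strand, which was higher in baicalein with a log2 fold change of 0.33. Further opposite-strand genes of the count table without a symbol share 721 exon bases with RBL2, with at most 6 counts in any library, and 211 with RBL1, with at most 19. To which gene reads in these shared bases were counted was not tested.

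**Figure D2:**
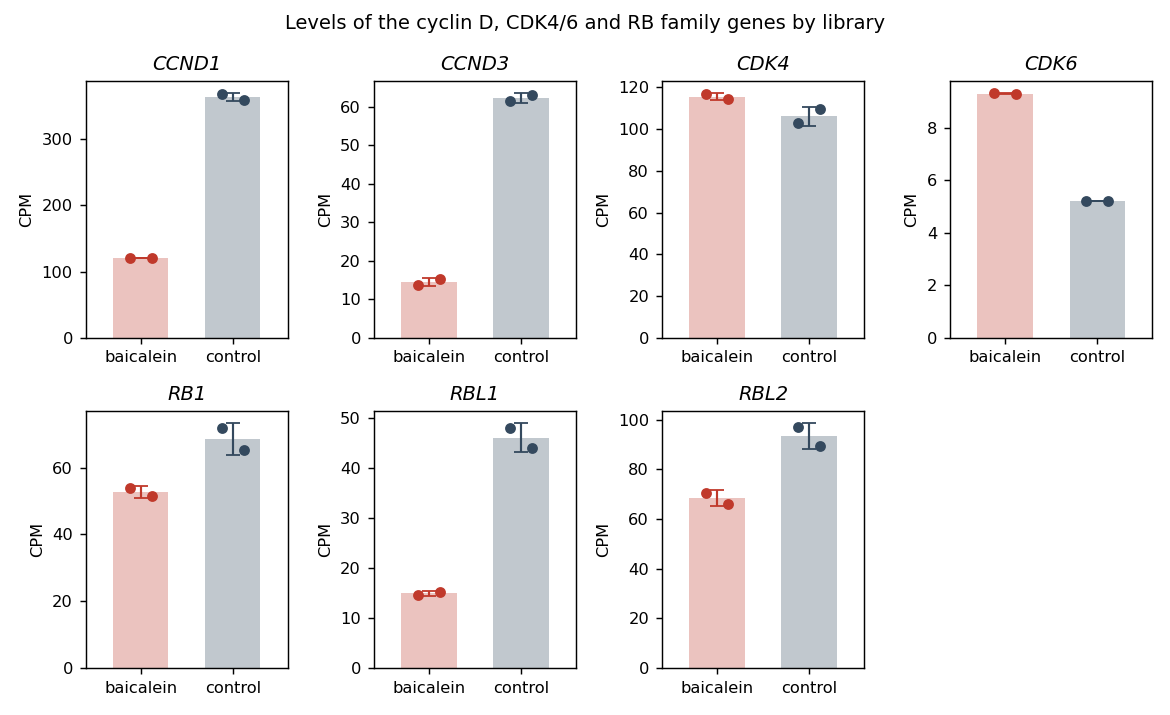
Level of each gene in CPM (y axis, from 0 in each panel) in baicalein (left, red) and control (right, grey) libraries; points are the 2 libraries of a group, bars the mean and error bars the SD. CCND1, CCND3 and RBL1 are lower in baicalein by about the same order of size, RB1 and RBL2 are slightly lower, CDK6 is higher and CDK4 nearly level.

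Levels of different genes can be set side by side only per length, so CPM were divided by the length of all annotated exons of a gene in kilobases. On this scale CCND1 was second in baicalein libraries, at 24.9 and 24.9 CPM per kb behind CDK4 at 36.8 and 36.1, and first in control libraries, at 76.1 and 74.3 ahead of CDK4 at 32.4 and 34.5. RBL2 came next in both groups, with 9.65 and 9.05 CPM per kb in baicalein and 13.2 and 12.2 in control libraries. RB1 followed with 8.37 and 7.97 CPM per kb in baicalein and 11.1 and 10.1 in control libraries. CCND3 had 2.38 and 2.64 CPM per kb in baicalein libraries, where its range overlapped that of RBL1 (2.45 and 2.56), and 10.6 and 10.9 in control libraries, where it overlapped that of RB1. RBL1 in control libraries had 8.08 and 7.40 CPM per kb. CDK6 was last in both groups, with 0.759 and 0.758 CPM per kb in baicalein and 0.423 and 0.423 in control libraries. With the longest annotated transcript as the length, which for CCND3 is 2394 bases in place of 5802, CCND3 moved ahead of RBL2 in control libraries, at 25.7 and 26.3 CPM per kb, and stayed below RB1 in baicalein libraries.

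The sum of CCND1 and CCND3 was 27.2 and 27.5 CPM per kb in baicalein libraries, against 86.7 and 85.2 in control libraries, while the sum of CDK4 and CDK6 was 37.6 and 36.9 in baicalein and 32.8 and 35.0 in control libraries. The ratio of the cyclin sum to the kinase sum was therefore 0.725 and 0.745 in baicalein libraries and 2.64 and 2.44 in control libraries. At the RNA level the cyclins were thus the less abundant partner in baicalein and the more abundant one in control libraries, also with the longest transcript as the length (0.590 and 0.613 in baicalein, 2.22 and 2.06 in control libraries). CCND2 is not part of these sums. How reads in exon bases shared by CDK4 with TSPAN31, and by CCND1 with LTO1, bear on the ratio was not tested.

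Within each class the composition shifted as well. CCND1 made up 90.8% ± 0.618 of the D-type cyclin level in baicalein and 87.5% ± 0.390 in control libraries (SD, n = 2 each), and CDK6 made up 2.04% ± 0.0241 of the kinase level in baicalein and 1.25% ± 0.0549 in control libraries. With the longest transcript as the length, CCND1 had 27.9 and 27.9 CPM per kb in baicalein and 85.4 and 83.4 in control libraries. CCND3 then had 5.77 and 6.4 CPM per kb in baicalein and 25.7 and 26.3 in control libraries. The CCND1 share was thus smaller in both groups on that length. RB1 made up 40.8% ± 0.115 of the RB family in baicalein and 34.1% ± 0.267 in control libraries. The share of RBL1, chosen after its values were seen, was 12.5% ± 0.771 in baicalein and 24.9% ± 0.00171 in control libraries. Each share differed between groups by more than the spread within them, but an exact two-sided permutation test of 2 against 2 libraries cannot go below p = 0.333, the value found for all 4 shares. The 95% Wilson intervals of single libraries, which cover counting error only, were at their widest 39.4% to 42.1% (RB1, baicalein 2).

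**Figure D3:**
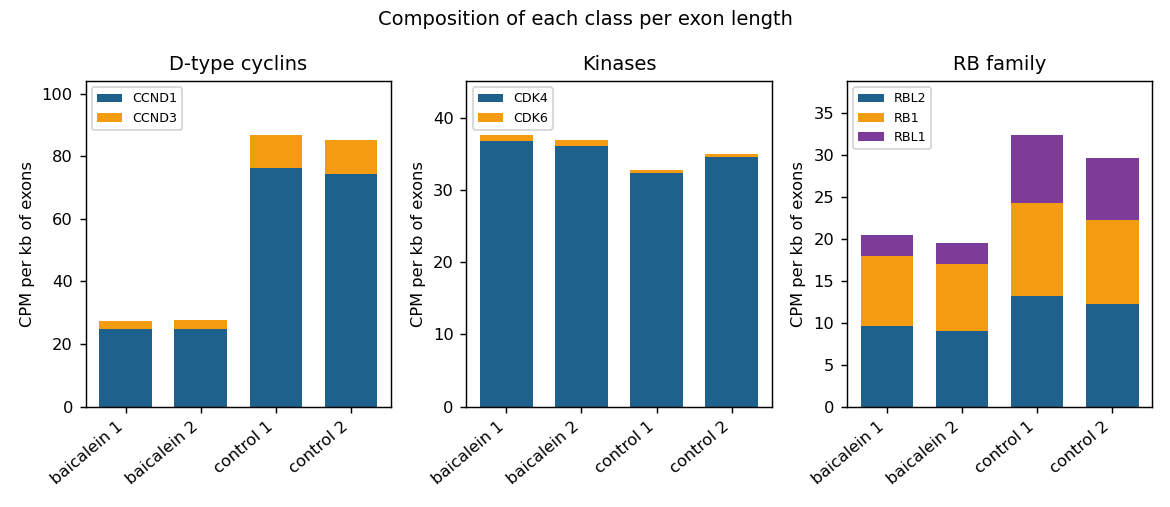
Stacked level in CPM per kb of exons (y axis) of the D-type cyclins, the kinases and the RB family in each library, baicalein on the left. The cyclin stack reaches 27.2 and 27.5 in baicalein and 86.7 and 85.2 in control libraries, the kinase stack lies between 32.8 and 37.6 in all 4, and the RBL1 part of the RB family stack is smaller in baicalein.

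Genes that act on the D-type cyclin complexes were examined next. Of 7 genes for CDK inhibitors 3 were higher and 2 lower in edgeR's test, with a median log2 fold change of -0.08. The inhibitors of CDK4 and CDK6 alone (INK4 family) differed among themselves: CDKN2B was higher (49.6 ± 0.597 CPM in baicalein and 8.56 ± 0.0731 CPM in control libraries) and CDKN2C lower (8.56 ± 0.103 CPM in baicalein and 49.8 ± 0.404 CPM in control libraries). CDKN2D was also lower, with a log2 fold change of -0.78, and CDKN2A had -0.11, which did not pass (edgeR adjusted p = 0.0691). The counts per gene do not separate the transcripts of CDKN2A. The call of CDKN2A went both ways: it passed as lower with upper quartile factors (-0.14), with library totals alone (-0.21) and without control 1 (-0.16), and as higher with GC content and exon length corrected (0.22). Of the general inhibitors, CDKN1A (p21) had a log2 fold change of 3.42 and CDKN1B (p27) one of 0.64, and CDKN1C had -0.08 at under 0.5 CPM in every library and did not pass.

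All 3 subunits of the CDK-activating kinase, which phosphorylates CDK4 and CDK6, had positive log2 fold changes, and 2 passed. CDK7, its catalytic subunit, had 78.4 and 79.7 CPM in baicalein and 34.3 and 31.6 CPM in control libraries, MNAT1 had a log2 fold change of 0.28, and CCNH had 0.10 (edgeR adjusted p = 0.113), turning to -0.01 with library totals alone and passing as higher without control 1 (0.13). Of 9 genes of D-type cyclin turnover 6 were higher and 2 lower (median 0.36). GSK3B, which codes for the kinase that marks cyclin D1 for export and breakdown, had 196.4 and 198.0 CPM in baicalein and 95.8 and 94.1 CPM in control libraries. FBXO31, a ubiquitin ligase subunit for cyclin D1, and USP2, a deubiquitinase that stabilises it, had log2 fold changes of 0.89 and 1.05. AMBRA1, the ligase adaptor for all 3 D-type cyclins, had 0.19 (edgeR adjusted p = 0.00449), a call lost with library totals alone and without baicalein 2.

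Among 19 transcription factor genes known to act on D-type cyclin genes, 10 were higher and 6 lower (median 0.33). The 2 steroid receptor genes were among the lower ones, PGR with 112.7 and 106.4 CPM in baicalein and 927.3 and 894.3 CPM in control libraries and ESR1 with a log2 fold change of -2.20. EGR1 had the lowest value of the list, -3.16, at low levels (0.549 and 0.456 CPM in baicalein, 4.25 and 4.89 CPM in control libraries). CTNNB1, which codes for beta-catenin, was lower with -0.25. FOSL2, an AP-1 subunit gene, was higher with 2.11, STAT3 with 0.36 and MYC with 0.68 (127.7 and 139.5 CPM in baicalein, 80.2 and 86.5 CPM in control libraries).

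Downstream of the pocket proteins, of 10 E2F and DP genes 6 were lower and 2 higher (median -0.84). The activator genes E2F1 and E2F2 had log2 fold changes of -3.86 and -4.37, and the late repressor genes E2F7 and E2F8 had -2.19 and -2.81. E2F3 (0.05) and E2F4 (0.03) did not pass, and both turned to the other sign with library totals alone (-0.05 and -0.07). With GC content and exon length corrected E2F4 passed as higher, at 0.33. E2F5, like E2F4 a partner of p107 and p130, had 0.29 and E2F6, a repressor that does not bind pocket proteins, 0.55. TFDP1, the main dimer partner, had 52.8 and 53.0 CPM in baicalein and 142.0 and 137.3 CPM in control libraries.

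The MuvB core joins p107 or p130 in the DREAM complex of resting cells and B-MYB or FOXM1 in cycling cells. MYBL2, which codes for B-MYB, had 49.6 and 50.7 CPM in baicalein and 323.8 and 342.3 CPM in control libraries, and FOXM1 had a log2 fold change of -1.54. Of the 5 MuvB core genes LIN9 was lower (-1.10) and LIN54 higher (0.38), while LIN52 (0.07), LIN37 (-0.06) and RBBP4 (-0.01) did not pass. RBBP4 passed as lower with library totals alone (-0.11) and with GC content and exon length corrected (-0.20), and LIN37 passed as higher with that correction (0.24). Of 14 genes for RB-bound repressors and phosphatases 10 were lower and 2 higher (median -0.58). DNMT1, RBBP7 and SUV39H1, which code for chromatin factors that bind RB, had log2 fold changes of -1.78, -1.32 and -1.48. The genes of protein phosphatase 1, which removes phosphate from RB, did not move together: PPP1CA and PPP1CC were lower (-0.82 and -0.63) and PPP1CB higher (0.61).

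The next cyclin-kinase step and the S-phase genes that E2F drives were lower throughout. All 5 tested genes of the cyclin E, cyclin A and CDK2 step were lower (median -2.56), among them CCNE2 with 6.36 and 5.40 CPM in baicalein and 70.0 and 61.6 CPM in control libraries. CDK2 had a log2 fold change of -2.56, CCNE1 one of -2.67 and CDC25A, the phosphatase gene of this step, -2.55. All 16 E2F-driven S-phase genes were lower (median -2.62), with -3.14 for RRM2, -2.87 for MCM3 and -3.36 for TK1. An E2F site of the kinds listed above stood before at least 1 annotated start in 7 of 13 matched genes of this list and in RBL1, as against 5.43% of 12177 tested genes with a window. It stood in 4 of 8 E2F and DP genes, among them E2F3, which did not pass, in 3 of 14 other CDK genes, and in only 1 of 4 genes of the cyclin E, cyclin A and CDK2 step (CDC25A). MuvB and its partners had it in 1 of 6 (LIN52), D-type cyclin turnover in 1 of 8, RB-bound repressors and phosphatases in 1 of 13 and other cyclins in 1 of 15. The CDK inhibitor, CDK-activating kinase and upstream transcription factor lists had none. No such site was found in the windows of the other 5 matched genes of the family, where the RB1 window lies inside the gene, before a start at position 48476450. Any part of these sites in the fold changes was not tested.

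The remaining cyclin and CDK genes differed in direction from one another. Of 15 other cyclin genes 11 were higher and 4 lower (median 0.34); the lower ones included the mitotic cyclins CCNB1 (-1.04) and CCNB2 (-1.06), and CCNF (-1.80), which codes for an F-box subunit of a ubiquitin ligase. Of 14 other CDK genes 6 were higher and 6 lower (median -0.02), with -1.97 for the mitotic kinase gene CDK1, -1.29 for CDK18 and 1.17 for CDK13, a kinase of RNA polymerase II.

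**Figure D4:**
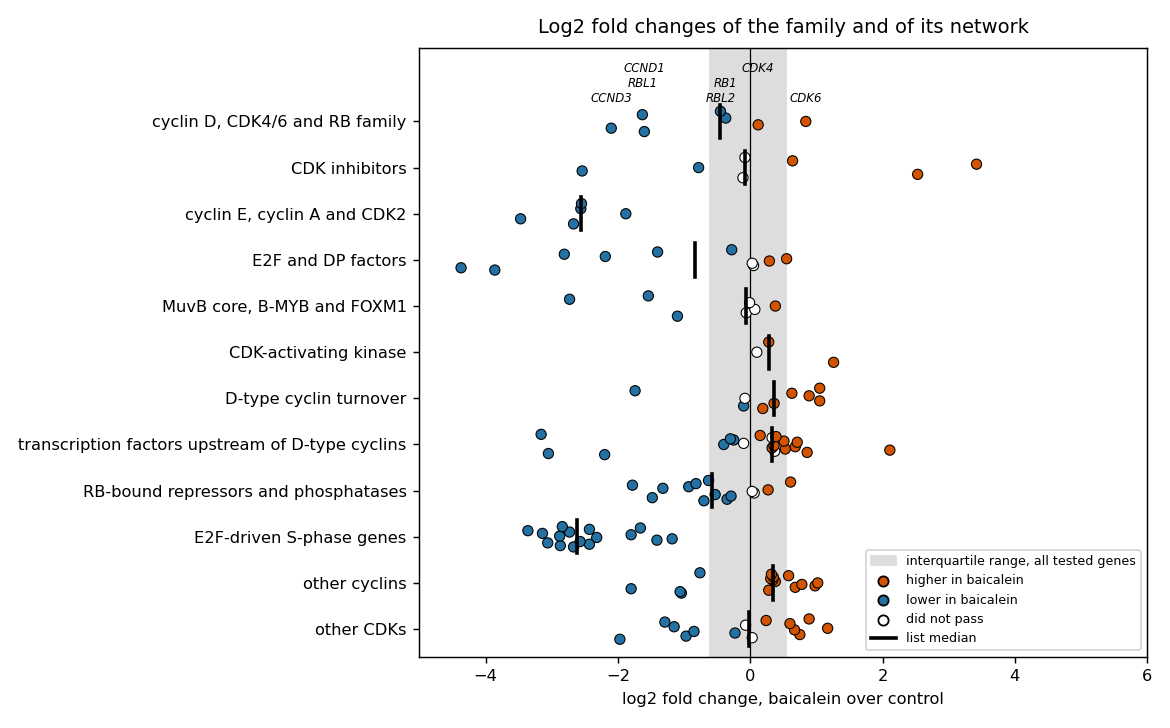
Log2 fold change, baicalein over control (x axis), of each tested gene of the family and of 11 related lists; orange points were higher, blue points lower and white points did not pass in edgeR's test, black bars are list medians, and the grey band is the interquartile range of all tested genes. CCND1, CCND3 and RBL1 lie left of the band, CDK6 right of it, and the S-phase list lies wholly to the left, between -3.36 and -1.18.

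The genes nearest in pattern were found as those with the smallest Euclidean distance between log2 CPM values centred on each gene's mean, over 4 libraries and 12605 genes. Nearest to CCND1 were ARHGEF26 (distance 0.020) and LPAR1 (0.026), and nearest to CCND3 were ZDHHC12 (0.038) and SEC14L5 (0.047). RBL1 had NDC1 (0.044) and SMC2 (0.045), RB1 had YEATS4 (0.011) and ZNF440 (0.023), and RBL2 had ZFP30 (0.019) and TIMM23B-AGAP6 (0.032). CDK4 had MT-ND5 (0.011) and BNIP1 (0.012), and CDK6 had PPP4R3A (0.014) and VPS41 (0.015). With 2 libraries per group, such closeness says little more than that the fold changes were alike.

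**Figure D5:**
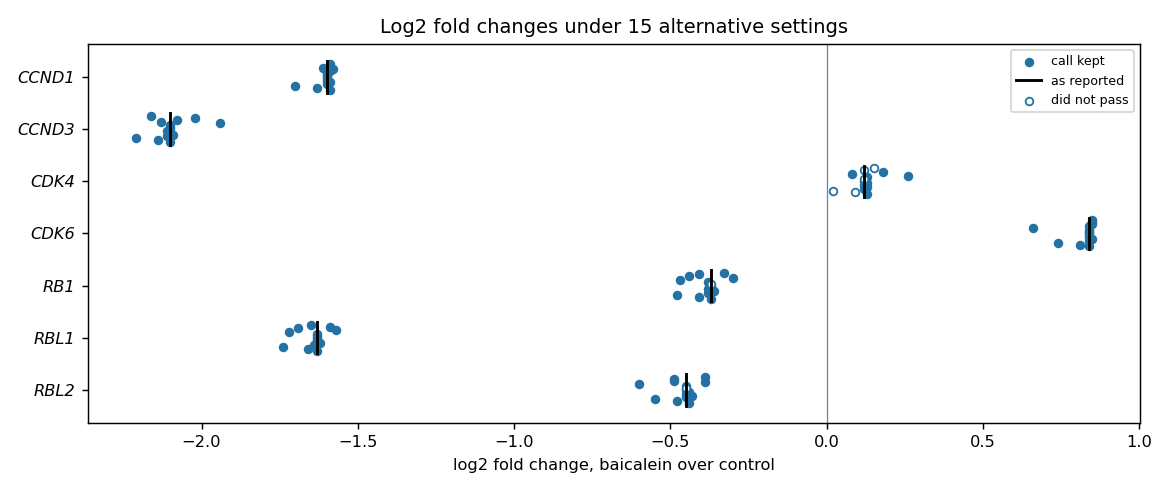
Log2 fold change, baicalein over control (x axis), of each gene as reported (black bar) and under 15 alternative settings (filled points where the gene passed in the same direction, open points where it did not pass). All values keep their sign, and CDK4, which ranges between 0.02 and 0.26, comes nearest to 0.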

How the data were processed

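RNA from 4 T47D libraries was analysed. The authors deposited unscaled whole-number counts for each Ensembl gene. Per the submitters' processing notes, the tools included STAR 2.7.8a, RSEM 1.3.3, cutadapt 2.3, DESeq2 1.34 and FastQC 0.11.8, with build GRCh38; nothing used here states the strand setting or whether the counts are rounded RSEM estimates. The smallest row total was 10. Columns were matched by sample description and grouped by title.

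The test was edgeR's (4.0.16, under R 4.3.3; robust quasi-likelihood F test, no covariates, TMM factors of 0.964 to 1.042, filterByExpr with a minimum count of 10 and total of 15), which kept 18369 genes (2146 left out). P-values were adjusted by Benjamini-Hochberg over these, with a threshold of 0.05; SE is the log2 fold change over the square root of F. One CPM stood for 37.2 to 54.7 counts. Positions and exon lengths come from GENCODE release 29 on GRCh38, which may not be the authors' release. The fit was tested on simulated counts. There 50 genes each changed by 1.2, 1.5, 2 or 4-fold, and 29, 46, 50 and 49 of them were recovered. Of 17449 unchanged genes 25 were called. Far fewer genes changed there than passed here, so the simulation did not check the scaling between libraries. The family, the lists and the tests were chosen with earlier results of these data known. Named were all 7 tested genes, the 3 of each list with the smallest adjusted p, others needed by role (chosen after their values were seen), and the 2 genes nearest in pattern, of those with a mean log2 CPM of at least 1. Alternatives included DESeq2 1.42.0 and limma-voom (limma 3.58.1).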

Additional observations from a re-analysis of the deposited data

How the results depend on the processing

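The 7 genes kept their direction under all 15 alternatives, and 97 of 105 values stayed on their side of the threshold. CCND1 ranged over -1.70 to -1.58, CCND3 over -2.21 to -1.94, RBL1 over -1.74 to -1.57, CDK6 over 0.66 to 0.85, RB1 over -0.48 to -0.30 and RBL2 over -0.60 to -0.39 on the log2 scale. A test against a 1.5-fold change called 1 of the 7 genes higher and 3 lower (3090 and 3581 over all genes), against 2 and 5 as reported (6866 and 6902). CDK4 is the gene lost from the higher count, leaving 1, with upper quartile factors, with library totals alone, at a threshold of 0.01 and without either baicalein library (1 to 2 over the libraries left out). Library totals alone moved the median of all genes to -0.10. Relative to that median CDK4 had the same sign as before, but the shift is shared by all genes, so this is no separate check. The replicate numbers mark no shared batch in the labels, and deviations of same-numbered libraries correlated at 0.014; with the replicate number as a block, 6894 genes were higher and 6909 lower and the 7 genes kept their calls.

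Values of genes that did not pass turned sign in these cases: CCNH (-0.01), E2F3 (-0.05), E2F4 (-0.07) and LIN52 (-0.04) with library totals alone, E2F4 (0.00) with upper quartile factors, CDKN2A (0.22), E2F3 (-0.05), LIN37 (0.24) and LIN52 (-0.01) with GC content and exon length corrected, LIN37 (0.11) without control 2 (-0.20 without control 1), and RBBP4 (0.00) with at least 50 counts in 2 libraries and without baicalein 1. MT-ND5, which passed, turned to -0.02 with GC content and exon length corrected. Of genes that did not pass, some did under an alternative: CDKN2A was lower with upper quartile factors (-0.14), with library totals alone (-0.21) and without control 1 (-0.16), RBBP4 was lower with library totals alone (-0.11) and with GC content and exon length corrected (-0.20), CDKN2A (0.22), LIN37 (0.24), E2F4 (0.33) and BNIP1 (0.16) were higher with that correction, and CCNH was higher without control 1 (0.13). The cause was not tested. No share of the family reversed: without single libraries the difference, baicalein minus control, ranged over 2.88 to 3.75 percentage points for CCND1, 0.75 to 0.83 for CDK6, 6.51 to 6.89 for RB1 and -12.93 to -11.83 for RBL1. The size of each difference depended on the length used. That of CCND1 was 5.65 with the longest transcript and 3.81 without division by length (3.31 as reported). In the same order, that of CDK6 was 0.55 and 2.78 (0.79 as reported). That of RB1 was 5.41 and 5.82 (6.70 as reported), and that of RBL1 was -10.06 and -11.21 (-12.38 as reported). At the depth of CDK6, the lowest count was 244.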
